A study of Mus musculus with 8 samples.

Results

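The genes described are the nuclear-encoded subunits of the mitochondrial respiratory chain and ATP synthase, measured by RNA-seq in the mouse olfactory bulb. They were chosen by symbol alone: names that begin with Nduf and one of the letters a, b, c, s or v followed by a digit, Sdha to Sdhd, names that begin with Uqcr, Cox4 to Cox8 or Atp5, and Cyc1. The rule found 84 genes of the 19583 rows of the table, of which 37 were assigned to complex I, 4 to complex II, 9 to complex III, 17 to complex IV and 17 to complex V. A few of these symbols stand for proteins that are not established structural subunits: Atp5s and Atp5sl are associated with assembly or coupling, Cox7a2l joins complexes into supercomplexes, and Ndufa4l2 is a relative of Ndufa4. Ndufa4 itself is counted here under complex I by its symbol, although its protein is now placed with complex IV.

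Olfactory bulbs were compared between 4 libraries of double mutants and 4 libraries of wild-type littermates, at postnatal day 30 and on a mixed background of C57BL/6J, 129S6 and CD1. The double mutants carried hGFAP-Cre together with Sp8 Flox/Flox and Sp9 Flox/Flox, so that Cre, driven by the human GFAP promoter, acts in radial glia and in the cells they give rise to, astrocytes included. No Cre transgene and no floxed allele is named for the controls, so effects of either by itself cannot be told apart from the loss of Sp8 and Sp9, transcription factors of olfactory bulb interneurons. Libraries carry the letters A and B (double mutant) or C and D (wild type), with a pair of libraries to each letter, and nothing says whether libraries of a letter share an animal. Over the tested genes, libraries of a letter correlated at an estimated 0.246 within their group, so they were not fully independent. The main fit and the permutation tests treat the 4 libraries of a group as independent. Their p-values therefore rest on library-to-library spread, of which some may be technical.

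Sp8 was at 7.27 ± 0.822 FPKM (SD, n = 4; a fragment count scaled for transcript length and library depth) in the double mutant and 30.5 ± 1.04 in the wild type. Sp9 was at 6.74 ± 0.530 and 24.1 ± 0.931. The dissected tissue held the markers that its label calls for: 7 interneuron and granule cell genes summed to 1393 to 1419 FPKM in the wild-type libraries. The 6 genes of mitral and tufted cells, the excitatory output neurons of the bulb, summed to 541 to 577 FPKM. In the double mutant the first sum was 573 to 644 FPKM and the second 805 to 875 FPKM. Astrocyte markers summed to 1248 to 1288 FPKM against 839 to 935 FPKM, and endothelial and mural markers to 338 to 378 FPKM against 192 to 200 FPKM. Olfactory ensheathing cell markers summed to 3159 to 3377 FPKM against 1617 to 1756 FPKM, and red blood cell genes to 1263 to 1646 FPKM against 403 to 642 FPKM. Of the 6 red blood cell genes, 4 were called higher, and Hba-a2 and Hbb-bs were not called. Libraries held an estimated 11869572 to 19051334 fragments each.

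The respiratory chain sits in the inner mitochondrial membrane. Complex I and complex II take electrons from NADH and succinate, complex III passes them to cytochrome c, complex IV gives them to oxygen, and the proton gradient built on the way drives ATP synthase, complex V. Most subunits are encoded in the nucleus and a small set of central ones in mitochondrial DNA, whose genes were not analysed here. Neurons depend on this pathway for the ATP spent on ion pumping and synaptic transmission, and several complex IV subunits come in alternative isoforms whose use differs between tissues.

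The respiratory chain genes as a set were close to their wild-type level in the double mutant, apart from larger rises of the minor complex IV isoforms Cox7a1 and Cox6b2. Cox6a2, another minor isoform, was also called higher, in 11 of 24 alternatives and with overlapping groups. All 84 passed the filter on low values, 30 were lower and 6 higher in the double mutant at an adjusted p below 0.05 (limma, Benjamini-Hochberg over 14349 genes). The other 48 were not called. In the same fit 65.3% of the tested genes were called, 36.5% lower and 28.8% higher, against 42.9% of the respiratory chain genes, 35.7% lower and 7.14% higher. The median log2 fold change of the set was -0.06, that of all tested genes -0.04, and 59 of the 84 were negative. This fit takes no account of the letters, and for the fits below that do, the share over all tested genes is not given here. A random block for the letter left 23 genes lower and 2 higher. Averaging the libraries of each letter left 17 of the 30 lower and 4 higher, and Cox8b was newly called, which made 18 lower. On the letter means Atp5g3, Atp5l, Cox4i1, Cox5b, Cox6a2, Cox7a2, Cyc1, Ndufa11, Ndufa12, Ndufs4, Ndufs8, Ndufv2, Sdhc, Uqcrc1 and Uqcrh lost their calls. In a bulk tissue, fewer cells of a type and less RNA per cell cannot be told apart.

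The changes were small beside those of other genes. The median absolute log2 fold change was 0.08 over the 84 genes, 0.24 over all tested genes and 0.18 over tested genes averaging 50 FPKM or more. Of the 84, 74 lay within 0.2 of 0 on the log2 scale and 3 were called with a change of at least 0.5 (3.57%, against 20.4% of the tested genes). The median standard error was 0.04 for the set and 0.06 for all tested genes. Double mutant and wild-type libraries did not overlap in 28 of the 84 genes (33.3%, against 59.1% of the tested genes), with the double mutant below in 25 (background 33.4%) and above in 3 (background 25.7%).

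**Figure D1:**
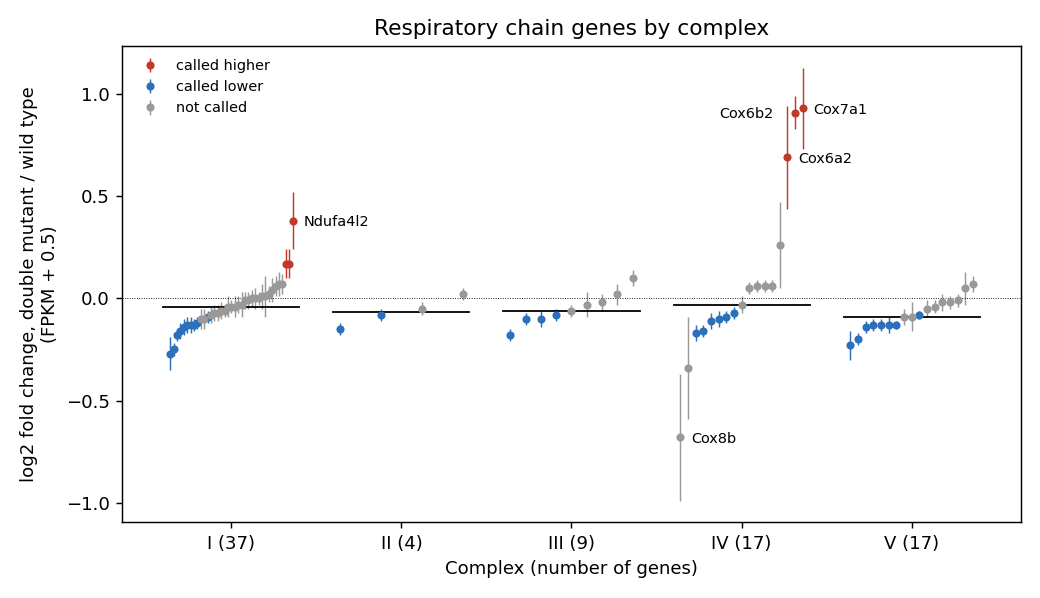
Log2 fold change (double mutant against wild type, on the log2(FPKM + 0.5) scale) with its standard error for each of the 84 genes, grouped by complex, with a black line at the median of each complex. Most points lie within 0.2 of 0, and Cox7a1 (0.93) and Cox6b2 (0.91) stand above the rest; the medians are below 0 here and change sign under some other scalings of the libraries.

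The direction of the set depended on how the libraries were scaled. With the FPKM as deposited, 30 genes were lower and 6 higher. With upper quartile scaling, 5 were lower and 16 higher, where 26.6% of all tested genes were lower and 35.7% higher. The median of the set ran from -0.059 with the deposited FPKM to 0.028 with upper quartile scaling. It was -0.035 with the authors' scaled counts, -0.019 with a trimmed mean, -0.0074 with a common median and 0.014 with quantile normalization. The median of all tested genes moved with it, from -0.038 to 0.042. Over the 6 scalings together, 5 genes were lower in every one (5.95%, against 26.1% of the tested genes), among them Ndufa4, Uqcrc2, Cox5a and Atp5g2. Another 4 were higher in every one (4.76%, against 24.9%): Cox7a1, Cox6b2, Ndufa3 and Ndufs8.

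**Figure D2:**
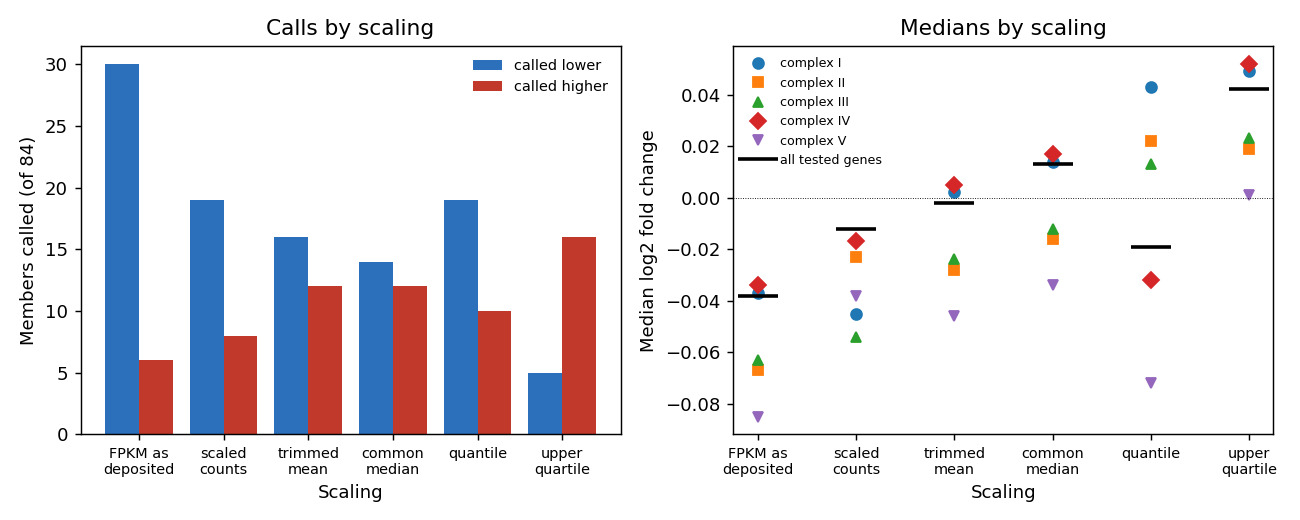
Left, number of the 84 genes called lower or higher in the double mutant (adjusted p below 0.05, limma) under 6 scalings of the libraries; right, median log2 fold change of each complex and of all tested genes under the same scalings. The calls go from 30 lower and 6 higher with the deposited FPKM to 5 lower and 16 higher with upper quartile scaling, and the medians of the complexes cross 0.

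Complex I, the NADH dehydrogenase, had 10 of its 37 genes lower, 3 higher and 24 not called, with a median of -0.04 that was above 0 with other scalings (0.049 upper quartile, 0.043 quantile, 0.014 common median, 0.002 trimmed mean). Its wild-type levels ran from 2.67 FPKM for Ndufa4l2 to 496 FPKM for Ndufa4, with a median of 109.9 FPKM. The 7 core subunits, which carry the flavin and the iron-sulfur clusters or shape the quinone site, had 4 lower (among them Ndufs1, Ndufs3 and Ndufv2), 1 higher (Ndufs8) and 2 not called (Ndufs7 and Ndufv1). With quantile normalization, as with upper quartile scaling, 1 of these 7 was lower and 1 higher. The lower genes outside the core were Ndufa4, counted here by its symbol, and the accessory subunits Ndufa9, Ndufa11, Ndufa12, Ndufb2 and Ndufs4. Of these, Ndufa12 lost its call without double mutant libraries 1 or 2 or wild-type libraries 2 or 4 (adjusted p up to 0.0733, limma). Ndufa11, Ndufa12 and Ndufs4 kept their calls in 0 of the 5 other scalings. Ndufb2 (log2 fold change -0.27) lost its call with upper quartile scaling (adjusted p = 0.0645, limma) and without letter D (0.0631).

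Ndufa4 was the most abundant gene named for complex I. Its levels were 446, 447, 424 and 433 FPKM in the double mutant and 496, 481, 503 and 502 FPKM in the wild type. Every double mutant library was below every wild-type library, and the log2 fold change was -0.18 ± 0.03 (adjusted p = 0.000232, limma). Ndufa9, an accessory subunit near the quinone site, was at 74.9 ± 3.20 FPKM in the double mutant and 83.7 ± 2.24 FPKM in the wild type (SD, n = 4), a log2 fold change of -0.16, and this call was lost with quantile normalization and with upper quartile scaling.

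The 3 complex I genes called higher all had overlapping groups. Ndufa4l2, known as a hypoxia-induced gene, was at 3.49, 4.65, 2.82 and 3.64 FPKM in the double mutant and 2.99, 2.68, 2.95 and 2.08 FPKM in the wild type (log2 fold change 0.38 ± 0.14, adjusted p = 0.0298, limma). Ndufa3, a small accessory subunit of the membrane arm, was at 291.1 ± 7.68 FPKM against 260.6 ± 27.1 FPKM (SD, n = 4), and Ndufs8, a core iron-sulfur subunit, at 108.5 ± 9.34 FPKM against 96.6 ± 7.46 FPKM. Both had a log2 fold change of 0.17, with adjusted p-values of 0.0447 and 0.0494 (limma). Leaving out single libraries ended all 3 calls. For Ndufa3 these were double mutant libraries 1, 2 or 4 or wild-type library 4 (adjusted p up to 0.0915). For Ndufs8 they were double mutant libraries 2, 3 or 4 or wild-type libraries 1, 3 or 4 (up to 0.135), and for Ndufa4l2 double mutant libraries 2 or 4 or wild-type libraries 2 or 4 (up to 0.0815).

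Complex II, succinate dehydrogenase, is also an enzyme of the tricarboxylic acid cycle. Of its 4 subunits 2 were lower and 2 not called. The median of -0.07 changed sign with quantile normalization (0.022) and upper quartile scaling (0.019). Sdhb, the iron-sulfur subunit, was at 90.7, 92.8, 89.8 and 93.6 FPKM in the double mutant and 97.7, 104, 105 and 101 FPKM in the wild type, without overlap (log2 fold change -0.15 ± 0.03, adjusted p = 0.00148, limma). Sdhc, a membrane anchor, was at 89.4 ± 2.42 FPKM against 94.5 ± 0.474 FPKM (SD, n = 4), a log2 fold change of -0.08. Sdha, the flavoprotein and the most abundant of the 4 in the wild type, was at 133.9 ± 2.87 FPKM against 139.1 ± 3.20 FPKM and did not pass the test, nor did the second anchor, Sdhd, at 67.3 FPKM against 66.2 FPKM. The Sdhb and Sdhc calls were lost under upper quartile scaling, where Sdhc was at 0.006. Sdhc also lost its call without double mutant libraries 2 or 3 or wild-type libraries 1, 2 or 4 (adjusted p up to 0.0617).

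Complex III, the cytochrome bc1 complex, had 4 of 9 genes lower and 5 not called, with a median of -0.06 that changed sign with quantile normalization (0.013) and upper quartile scaling (0.023). Uqcrc2, a core protein of the matrix side, was at 88.5, 87.4, 94.3 and 90.2 FPKM in the double mutant and 99.7, 101, 103 and 104 FPKM in wild-type bulbs. The groups did not overlap, and the log2 fold change was -0.18 ± 0.03 (adjusted p = 0.000493, limma). The other core protein, Uqcrc1, changed by -0.08 on the log2 scale, and Cyc1, the cytochrome c1 that hands electrons to cytochrome c, by -0.10 (adjusted p = 0.0668 on the letter means, limma). Uqcrh, the acidic hinge protein and the most abundant gene of the complex, was at 382 ± 18.5 FPKM against 409 ± 12.8 FPKM (SD, n = 4), with overlapping groups and an adjusted p of 0.0443 (limma). The Uqcrc1, Cyc1 and Uqcrh calls were lost with upper quartile scaling. Uqcrc1 was also lost without double mutant libraries 2 or 4 or wild-type library 3 (adjusted p up to 0.0630), and Uqcrh without double mutant libraries 1, 3 or 4 or wild-type libraries 1, 3 or 4 (up to 0.116). Uqcr11 had the highest value of the genes not called, 0.10, and was called higher under each of the 5 other scalings (0.12 to 0.18).

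ATP synthase, complex V, had 8 of its 17 genes lower, none higher (0) and 9 not called, with a median of -0.09 that came to 0.0012 under upper quartile scaling, where 1 was lower and 2 were higher. The lower genes included the catalytic beta subunit Atp5b, the alpha subunit Atp5a1 and the gamma subunit of the central stalk, Atp5c1. Atp5f1, Atp5l and the ring subunits Atp5g2 and Atp5g3 were lower too. So was Atp5sl, now named Dmac2, which is counted here by its symbol and is not an established subunit of ATP synthase. The Atp5l call was lost without double mutant libraries 2 or 4 or wild-type library 3 (adjusted p up to 0.0669, limma). Atp5b was at 728, 720, 736 and 721 FPKM in the double mutant and 778, 793, 795 and 809 FPKM in the wild type, without overlap (log2 fold change -0.13 ± 0.02, adjusted p = 0.000907, limma). Atp5c1 was at 190.6 ± 3.29 FPKM against 208 ± 3.23 FPKM (SD, n = 4). Atp5k, the e subunit of the membrane part, had the highest FPKM of the set in the wild type, at 917. It was at 901 ± 30.2 FPKM in the double mutant and was not called (log2 fold change -0.02 ± 0.04). With quantile normalization it was called lower, at -0.18 (adjusted p = 0.00199, limma). Its rank holds for FPKM only. Atp5k held an estimated 823 fragments per library on a median transcript of 321.5 bases, and Atp5b 19034 on 1916 bases.

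The ring of ATP synthase that turns with the proton flow is built from one protein encoded by 3 genes, Atp5g1, Atp5g2 and Atp5g3, which differ in the targeting sequence that is removed. Atp5g2 was at 196, 206, 205 and 214 FPKM in the double mutant and 235, 235, 231 and 240 FPKM in wild-type bulbs. The groups did not overlap, and the log2 fold change was -0.20 ± 0.03 (adjusted p = 0.000218, limma). Atp5g3, the most abundant of the 3, was at 300.3 ± 1.46 FPKM against 318 ± 2.11 FPKM (SD, n = 4), a log2 fold change of -0.08 whose call was lost with upper quartile scaling, at 0.0037, and on the letter means (adjusted p = 0.0968, limma). Atp5g1 was at 143 ± 5.10 FPKM against 152 ± 7.44 FPKM and was not called. As a share of Atp5g3, Atp5g2 was 68.3% ± 2.53 in the double mutant and 74.0% ± 1.18 in the wild type, without overlap (exact permutation p = 0.0286, two-sided, the smallest that 4 against 4 libraries can give, and 0.0715 adjusted over the 10 isoform pairs compared).

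**Figure D3:**
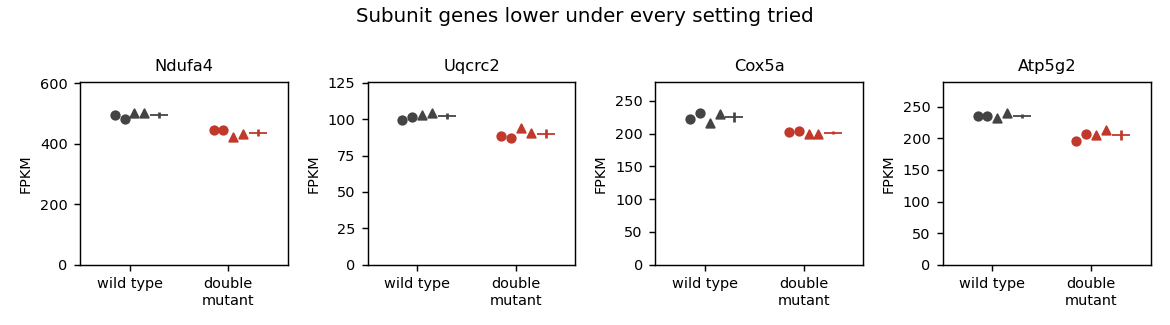
FPKM in each library of 4 genes that were lower in the double mutant under each of the 6 scalings; circles are libraries of letters A or C, triangles libraries of letters B or D, and the dash with its bar is the mean ± SD of 4 libraries. In each of these genes the 4 double mutant libraries lie below the 4 wild-type libraries.

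Complex IV, cytochrome c oxidase, had 6 of its 17 genes lower, 3 higher and 8 not called, with a median of -0.03 that turned to 0.052 under upper quartile scaling, 0.017 under a common median and 0.005 under a trimmed mean. Its levels ran from 0.649 FPKM for Cox7b2 to 853 FPKM for Cox8a in the wild type. Cox5a, a nuclear-encoded subunit on the matrix side, was at 202, 203, 199 and 199.7 FPKM in the double mutant and 223, 232, 217 and 230.1 FPKM in wild-type bulbs. The groups did not overlap, with a log2 fold change of -0.16 ± 0.03 (adjusted p = 0.000488, limma). Cox8a, Cox7c, Cox7a2, Cox5b and Cox4i1 were also lower, by -0.17 to -0.07 on the log2 scale, and each of these calls was lost with upper quartile scaling. Cox4i1 was lost without any one of double mutant libraries 1, 2 or 3 or wild-type libraries 2, 3 or 4 (adjusted p up to 0.106), and Cox7a2 without double mutant libraries 1 or 2 or wild-type libraries 1, 2 or 3 (up to 0.0668). Cox7c was lost without double mutant library 1 or wild-type libraries 1 or 3 (up to 0.0599), and Cox5b without double mutant libraries 2 or 4 or wild-type library 3 (up to 0.0650).

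Several complex IV positions can be filled by alternative isoforms: a ubiquitous form and a second form best known from heart and skeletal muscle (Cox6a2, Cox7a1 and Cox8b), from testis (Cox6b2 and Cox7b2) or from lung (Cox4i2). In the wild-type bulb each second form was far below its ubiquitous partner in FPKM, from 0.209% ± 0.0871 of Cox4i1 for Cox4i2 to 4.27% ± 1.31 of Cox7a2 for Cox7a1 (SD, n = 4). In estimated fragments per library, Cox7a1 held 24 and Cox7a2 1324, so the size of such a share depends on the measure. Cox7a1 and Cox6b2 rose in the double mutant, while with the deposited FPKM Cox7a2 was called lower and Cox6b1 was not called. Cox6b1 was called higher with upper quartile, trimmed mean and common median scaling and with the scaled counts. The stretches upstream of these 4 genes are shown because these are the pairs of ubiquitous and minor complex IV forms whose ratio did not overlap between the groups, although no ratio passed after adjustment over the pairs. They are RefSeq sequences of GRCm38.p6, up to 250 bases before the gene start with annotated exons left out, 5′ to 3′ on the gene's strand, and the capitals mark a GC box (GGGCGG), which lies 44 bases before the Cox7a2 start.
Cox7a1, chr7:30183921-30184143, plus strand: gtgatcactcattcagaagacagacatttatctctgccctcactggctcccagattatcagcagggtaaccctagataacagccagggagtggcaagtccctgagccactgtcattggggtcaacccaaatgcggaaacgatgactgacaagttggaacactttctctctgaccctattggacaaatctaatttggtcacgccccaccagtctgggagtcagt
Cox7a2, chr9:79759879-79760103, minus strand: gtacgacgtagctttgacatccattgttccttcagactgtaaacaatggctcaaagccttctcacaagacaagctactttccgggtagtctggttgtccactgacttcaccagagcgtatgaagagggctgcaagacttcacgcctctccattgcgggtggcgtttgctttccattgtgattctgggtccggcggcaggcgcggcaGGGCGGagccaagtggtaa
Cox6b2, chr7:4753095-4753225, minus strand: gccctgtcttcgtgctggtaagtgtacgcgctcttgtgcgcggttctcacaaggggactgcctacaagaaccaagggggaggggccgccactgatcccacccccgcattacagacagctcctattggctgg
Cox6b1, chr7:30626152-30626364, minus strand: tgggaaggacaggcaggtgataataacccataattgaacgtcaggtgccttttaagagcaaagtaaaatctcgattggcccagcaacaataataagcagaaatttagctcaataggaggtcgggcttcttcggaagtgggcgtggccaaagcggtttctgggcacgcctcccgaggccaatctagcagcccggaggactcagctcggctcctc

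Cox7a1 was at 15.7, 16.3, 13.0 and 14.4 FPKM in the double mutant and 8.22, 10.5, 8.19 and 4.44 FPKM in the wild type. Every double mutant library was above every wild-type library, and wild-type library 4 was the lowest. The log2 fold change was 0.93 ± 0.20 (adjusted p = 0.00181, limma; exact permutation p = 0.0286). Cox7a2 was at 170.6 ± 7.86 FPKM against 183 ± 3.47 FPKM (SD, n = 4), so that Cox7a1 came to 8.72% ± 1.14 of Cox7a2 in the double mutant and 4.27% ± 1.31 in the wild type. This ratio was 2.04-fold higher without overlap (exact permutation p = 0.0286, 0.0715 adjusted over 10 pairs). Cox7a1 rested on an estimated 24 fragments per library, and its call held in each of 25 alternatives, with log2 fold changes of 0.64 to 1.22.

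Cox6b2 had the smallest p of all 84 genes. It was at 8.01, 8.25, 7.80 and 6.88 FPKM in the double mutant and 3.82, 3.90, 4.46 and 3.41 FPKM in wild-type bulbs. The groups did not overlap, and the log2 fold change was 0.91 ± 0.08 (adjusted p = 3.32e-06, limma). Cox6b2 rested on few fragments, an estimated 27 per library. Cox6b1, the ubiquitous form, was at 449 ± 15.1 FPKM against 432 ± 7.81 FPKM (SD, n = 4) and was not called. Cox6b2 was 1.73% ± 0.160 of Cox6b1 in the double mutant and 0.902% ± 0.102 in the wild type, 1.91-fold higher (exact permutation p = 0.0286, 0.0715 adjusted over 10 pairs).

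The other second forms gave no like result. Cox6a2 was at 1.90, 1.80, 2.21 and 2.69 FPKM in the double mutant and 2.11, 1.195, 0.435 and 1.18 FPKM in the wild type, with overlap through wild-type library 1. Its log2 fold change was 0.69 ± 0.25 (adjusted p = 0.0331, limma), and the call held in 11 of the 24 alternatives that tested it. Among single libraries it was lost without double mutant libraries 3 or 4 or wild-type libraries 2, 3 or 4 (adjusted p up to 0.0838). Cox8b was at 1.76, 0.992, 0.521 and 0.765 FPKM against 0.972, 2.93, 1.26 and 2.74 FPKM, with a log2 fold change of -0.68 that did not pass the test (adjusted p = 0.0724, limma). It was called lower in 5 of 24 alternatives: quantile normalization (-0.85), the letter means (adjusted p = 0.0418, limma), and leaving out double mutant library 1, wild-type library 1 or letter A. Cox4i2, at 1.70 ± 0.457 FPKM against 1.37 ± 0.577 FPKM (SD, n = 4), was not called. Cox7b2 was listed at 0 in double mutant library 2 and at 0.493 to 0.816 FPKM in the other double mutant libraries, against 0.608 to 0.755 FPKM, and was not called. Cox8b and Cox7b2 rested on an estimated 3 fragments per library, Cox6a2 on 10 and Cox4i2 on 11.

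Of the ubiquitous forms, Cox8a was at 760 ± 47.0 FPKM against 853 ± 26.4 FPKM, Cox4i1 at 623 ± 13.3 FPKM against 655 ± 14.96 FPKM and Cox6a1 at 577 ± 22.8 FPKM against 556 ± 13.2 FPKM (SD, n = 4), the last not called here but called higher with upper quartile, trimmed mean and common median scaling. Cox7b, at 105.7 ± 0.864 FPKM against 101.6 ± 1.78 FPKM, did not overlap between the groups but was not called (log2 fold change 0.06). It was called higher under each of the 5 other scalings. Cox7a2l, the supercomplex factor, was not called at 62.5 ± 2.04 FPKM against 60.0 ± 1.22 FPKM, but was called higher under 4 of the 5 other scalings, the scaled counts being the exception. Its ratio to Cox7a2 was 36.7% ± 2.66 against 32.8% ± 1.16 without overlap, 1.12-fold higher (exact permutation p = 0.0286, 0.0715 adjusted over 10 pairs).

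Because 3 of the second forms are best known from muscle, a list of 8 muscle genes was read beside them. It summed to 4.79 to 5.52 FPKM in the double mutant and 4.55 to 5.94 FPKM in the wild type. Of its 3 genes above the filter, Myh6 was higher (1.46 against 0.758 FPKM), Acta1 lower (1.86 against 3.46 FPKM) and Tnnt2 not called. Ckm, the muscle creatine kinase, was between 0 and 0.190 FPKM. Endothelial and mural, meningeal, astrocyte and ensheathing cell markers were higher in the same libraries, with meningeal markers at 142 to 164 FPKM against 70.6 to 83.9 FPKM. Neuroblast markers summed to 81.8 to 87.7 FPKM against 185 to 198 FPKM. Of these 5 genes 4 were lower, and Sox11 was not called, at 6.25 against 6.06 FPKM. The part of these cell types in the levels of Cox7a1, Cox6b2 or the other respiratory chain genes was not tested.

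**Figure D4:**
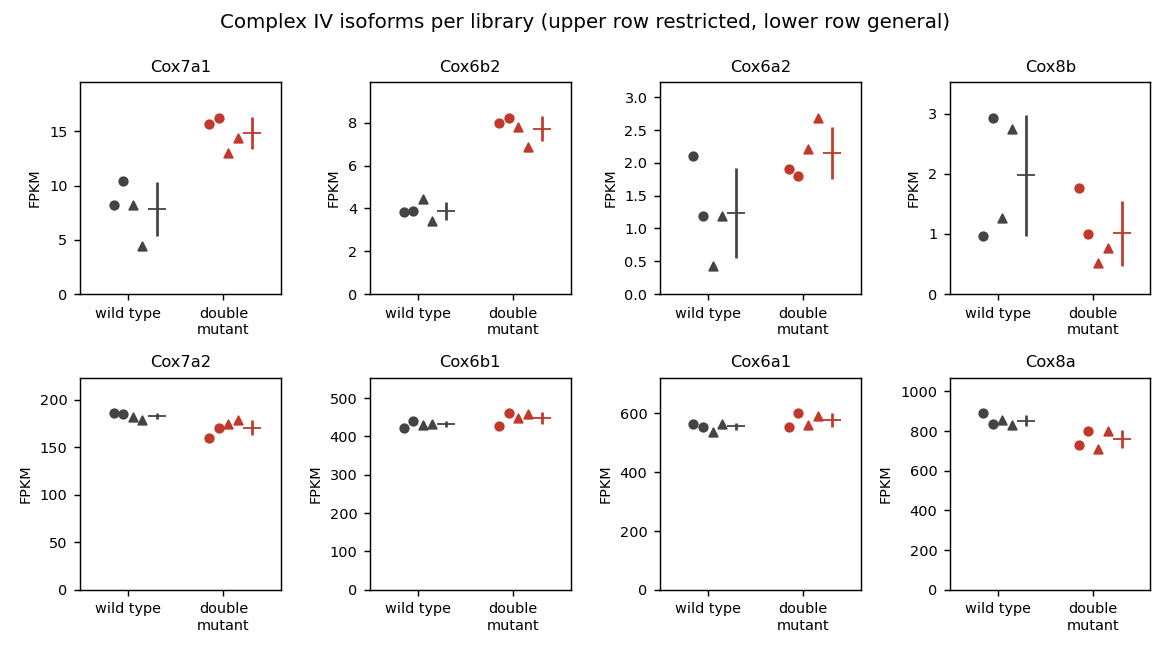
FPKM in each library of 4 less abundant complex IV isoforms (upper row) and of their ubiquitous partners (lower row); circles are libraries of letters A or C, triangles libraries of letters B or D, and the dash with its bar is the mean ± SD of 4 libraries. Cox7a1 and Cox6b2 are higher in the 4 double mutant libraries than in the highest wild-type one, Cox6a2 and Cox8b overlap, and Cox7a2 and Cox8a are lower with the deposited FPKM but not under upper quartile scaling.

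Summed over the 84 genes, the deposited values came to 15648 ± 231 FPKM in the double mutant and 16280 ± 92 FPKM in the wild type (SD, n = 4). By complex, the sums were 4278 against 4406 FPKM for complex I, 382 against 402 FPKM for complex II, 1815 against 1869 FPKM for complex III, 4300 against 4470 FPKM for complex IV and 4872 against 5133 FPKM for complex V. Double mutant libraries lay below wild-type libraries without overlap in the sums of all genes and of complexes I, II, IV and V, and overlapped them in complex III. These sums carry the scaling of the FPKM, which moves the direction as described above.

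Genes that build or regulate the chain were read from lists of the same pathway, whose counts stand beside 36.5% lower and 28.8% higher among all tested genes, or 26.6% and 35.7% with upper quartile scaling. Of 13 regulators of respiratory gene transcription, 10 were lower and none higher (0), with a median of -0.22. The median stayed between -0.22 and -0.14 over the 6 scalings, with 8 to 10 lower and 0 or 1 higher. Ppargc1a, the coactivator known as a driver of mitochondrial biogenesis, was at 11.8, 11.1, 12.5 and 12.1 FPKM in the double mutant and 16.9, 16.9, 16.7 and 16.7 FPKM in wild-type bulbs. The groups lay apart, with a log2 fold change of -0.49 ± 0.04 (adjusted p = 3.05e-06, limma). Esrra, the nuclear receptor that Ppargc1a coactivates, was at 32.7 ± 0.727 FPKM against 40.7 ± 1.03 FPKM (SD, n = 4; log2 fold change -0.31). The 3 not called were Gabpa, an ETS factor of respiratory genes, at 0.09, Tfam, which packages mitochondrial DNA, at -0.03, and Tfb1m at -0.02 on the log2 scale. Gabpa was at 9.29 to 9.75 FPKM in the double mutant and 8.63 to 9.12 FPKM in the wild type, above it without overlap (adjusted p = 0.0704, limma).

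Of 11 genes for outer membrane channels and protein import, 7 were lower and none higher (0) with the deposited FPKM, and the median of -0.19 came to -0.085 under quantile normalization, where 4 were lower and 2 higher. Vdac1, the main channel for metabolites, was at 175 ± 4.85 FPKM against 204.5 ± 1.66 FPKM (SD, n = 4; log2 fold change -0.22), and the import receptor Tomm70a at 32.6 ± 3.20 FPKM against 42.0 ± 1.05 FPKM (-0.37). Of 16 tricarboxylic acid cycle genes, 7 were lower and 1 higher, with a median of -0.09 that turned to 0.004 under quantile normalization. Suclg2, the GTP-forming subunit of succinyl-CoA ligase, was the gene that rose, at 23.0 ± 0.609 FPKM against 14.98 ± 0.781 FPKM (log2 fold change 0.60). Of 16 glycolysis genes, 8 were lower and 3 higher, with a median of -0.07 that turned to 0.018 under upper quartile scaling. Eno2, the neuronal enolase, was at 263 ± 8.09 FPKM against 390.6 ± 2.87 FPKM (-0.57). The phosphofructokinase Pfkp was at 57.2 ± 1.76 FPKM against 72.1 ± 1.70 FPKM (-0.33).

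Assembly factors moved in both directions. Of 14 for complex I, 5 were lower and 1 higher (median 0.00), with Ecsit at -0.36 and Tmem186 at -0.22 on the log2 scale. Of 21 for complex IV, 4 were lower and 3 higher (median -0.07, and 0.016 under upper quartile scaling), with the copper chaperone Cox11 at -0.25 and Cmc2 at 0.37. The 2 measured complex II factors, Sdhaf1 and Sdhaf2, were not called, and of 3 for complex III Ttc19 was lower, at -0.15, while Bcs1l, at -0.17, was not called. The Ttc19 call held in 12 of 25 alternatives and in 1 of the 5 other scalings, and was lost without double mutant libraries 1 or 2 or wild-type libraries 2 or 4 (adjusted p up to 0.0803, limma). Of 4 for complex V, Atpaf1 was lower, at -0.43. Its call held in 22 of 25 alternatives, but not on the letter means (adjusted p = 0.0533, limma) or without letter C (0.105). Atpif1, the inhibitor that holds back ATP hydrolysis, was higher, at 284 ± 11.4 FPKM against 254 ± 6.00 FPKM (SD, n = 4, log2 fold change 0.16). Cycs, the somatic cytochrome c, was at 36.3 ± 1.45 FPKM against 39.5 ± 0.868 FPKM and was called lower, at -0.12, a call kept in 2 of the 5 other scalings. Ndufab1, the acyl carrier of complex I, was not called.

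**Figure D5:**
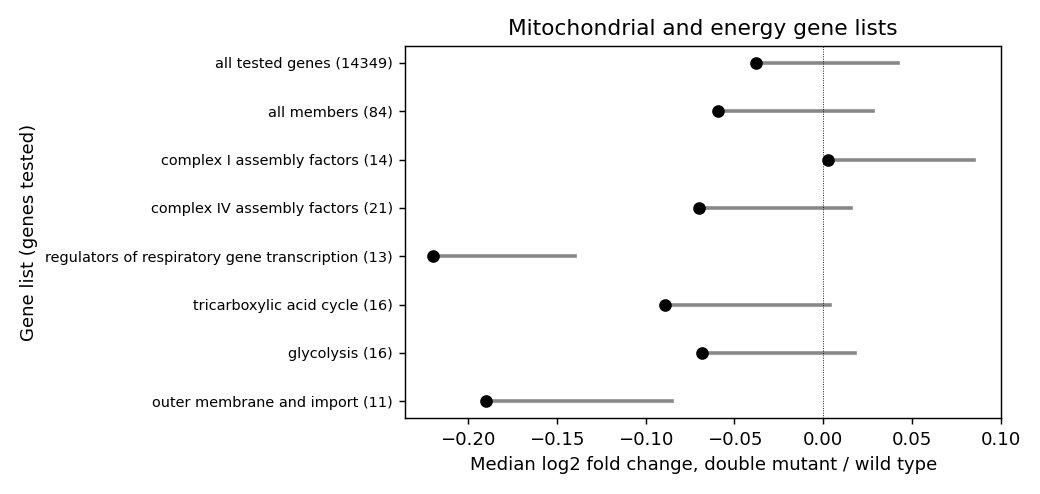
Median log2 fold change of all tested genes, the respiratory chain genes and some of the pathway lists. The lists drawn are complex I and complex IV assembly factors, transcription regulators, tricarboxylic acid cycle, glycolysis, and outer membrane and import. The dot is the value with the deposited FPKM and the grey line its range over 6 scalings of the libraries. The line of the transcription regulators runs from -0.22 to -0.14 and that of the outer membrane and import genes from -0.19 to -0.085. That of the 84 respiratory chain genes runs from -0.059 to 0.028. The 3 complex III assembly factors, from -0.15 to -0.061, are not drawn.

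Longer transcripts of the set tended to lower fold changes. Among the 29 genes with a median coding transcript of up to 600 bases (GENCODE M21), 7 were lower and 3 higher, with a median of -0.02. Among the 27 between 600 and 1000 bases, 6 were lower and 3 higher, with a median of -0.03. Among the 28 longer ones, 17 were lower and 0 higher, with a median of -0.11. Across the 84 genes, which are not independent and share their libraries, Spearman's rho between length and log2 fold change was -0.30 and Pearson's r with log2 length was -0.23. The same relation was present in 1169 other genes averaging 50 FPKM or more, with a rho of -0.27 and medians of 0.05, 0.00 and -0.11 in the same length ranges. Of these, 9 of 60 were lower and 25 higher in the shortest range, 39 of 163 lower and 45 higher in the middle one, and 503 of 946 lower and 233 higher in the longest. The part of transcript length in the calls was not tested.

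Promoters of 69 of the 84 genes were in the RefSeq table, and the first listed promoter of each gene was used. The 250 bases before each start were searched on both strands for motifs of factors known from respiratory gene promoters. For 60 of the 69, bases after the start matched the first 400 bases of a GENCODE transcript, so some starts may be misplaced. The palindromic NRF1 motif was found in 4 of 69 (5.8%, against 1.1% of 17492 protein-coding promoters), namely those of Atp5g2, Atp5k, Cox6a1 and Ndufa11. The ETS motif CCGGAAG, bound by GABP, was found in 11 (15.9%, against 9.1%). The GC box GGGCGG, bound by Sp factors, the family to which Sp8 and Sp9 belong, was found in 25 (36.2%, against 42.7%). The ERR motif AAGGTCA was found in 5 (7.2%, against 3.6%). Cox7a1 held none of the 4 motifs, Cox7a2 a GC box, Cox6b2 a GC box further upstream than the stretch shown, and Cox6b1 the ETS motif, also outside the stretch shown. A match of letters is a description of the sequence and not of a bound site.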

How the data were processed

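Gene-level values of 8 olfactory bulb libraries were used as deposited. The authors' FPKM were made with TopHat and Cufflinks 2.1.1 on GRCm38.p4, per the submitters' processing notes. For the annotation, strand setting and filters, nothing is given in the sources used here. Each library also has a deposited column headed as a count, which holds a signal scaled between libraries by the authors, not whole counts, so no count model was run. From the steps between its low values, 11869572 to 19051334 fragments per library were estimated.

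Log2(FPKM + 0.5) was fitted with limma 3.58.1 (R 4.3.3) for the 14349 genes averaging 0.5 FPKM or more, with group as the term, moderated variances with a mean trend, two-sided tests and Benjamini-Hochberg adjustment over these genes, called below 0.05. Fold changes on this scale understate the change of low genes. Rankings by abundance and ratios between genes are of FPKM, and estimated fragments can rank genes otherwise. Single ratios were compared by exact two-sided permutation tests over 70 assignments. Scalings, pseudocounts, filters, variance models, letters and left-out libraries were varied.

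The members and lists were chosen with earlier results of these data known. Genes were named by a rule: in each complex the 3 smallest p-values and the most abundant gene, called changes of at least 0.5, called genes of the rarer direction, the isoform sets, and 2 genes per pathway list; further genes were named after their values were seen, to account for members and calls. Some genes that the rule selects are not reported here. Exons of 20 of the 84 genes, 12 of them called, overlap a gene on the opposite strand (at most 46.3 FPKM in the wild type), and reads of the pair, or of processed pseudogenes, cannot be told apart. Positions are from GENCODE M21 (GRCm38) and promoters from RefSeq (GRCm38.p6). Fragment-based precision covers counting error only.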

Additional observations from a re-analysis of the deposited data

Results flagged for a closer look

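In 9 of the 168 combinations of a gene and a group of 4 libraries, 1 library stood far from the other 3 relative to the range of the group; chance gives about 1 such group in 20. In the double mutant these were Cox6c in library 1 (648.5 FPKM, the others 567 to 576), Atp5sl in library 1 (5.63 FPKM, the others 6.67 to 6.85), Atp5g3 in library 2 (298.2 FPKM, the others 300.9 to 301.3), Ndufb3 in library 3 (158.7 FPKM, the others 173 to 175), Ndufa10 in library 4 (78.1 FPKM, the others 74.2 to 74.3) and Ndufs6 in library 4 (83.3 FPKM, the others 95.3 to 97.6). In the wild type they were Ndufa2 in library 1 (117 FPKM, the others 107 to 108), Cox7b2 in library 3 (0.755 FPKM, the others 0.608 to 0.622) and Atp5g1 in library 4 (140.4 FPKM, the others 154.6 to 156.1). Among these genes Atp5g3 and Atp5sl were called lower, and both calls held when any 1 library was left out; Atp5g3 lost its call without letter C and Atp5sl without letter D.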

How the results depend on the processing

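Of the 36 called genes, 7 were called in the same direction in each of 25 alternatives, among them Ndufa4, Uqcrc2, Cox5a and Atp5g2 (lower) and Cox7a1 and Cox6b2 (higher). Over the 33 named members, 821 comparisons with an alternative gave 642 with the same direction and call, 136 that lost the call, 26 that gained one and 17 that changed sign; the cause was not tested. Genes called higher (6) were 16 with upper quartile scaling, 12 with a trimmed mean or a common median, 10 with quantile normalization, 2 with no filter, 2 with the letter as a random block, 3 without letter A and 2 to 6 when 1 library was left out. Genes called lower (30) were 5 with upper quartile scaling, 16 with a trimmed mean, 14 with a common median, 19 with quantile normalization, 19 with the scaled counts, 18 with the means of the letters, 5 over the 6 scalings together (chosen after seeing the data) and 23 to 29 when 1 library was left out. Of the 14349 tested genes, 4598 were lower and 4569 higher with a trimmed mean, and 4367 lower and 4739 higher with a common median. With quantile normalization 4720 were lower and 4209 higher, and with the scaled counts 4863 lower and 4504 higher. For the letter settings, left-out libraries, no filter and the 25 alternatives together, counts over all tested genes are not given here. The median of the set (-0.059) was 0.028 with upper quartile scaling, 0.014 with quantile normalization, -0.019 with a trimmed mean, -0.0074 with a common median, -0.035 with the scaled counts, -0.034 without letter B and -0.071 to -0.051 when 1 library was left out.

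With upper quartile scaling the signs changed for the medians of complex I (0.049), II (0.019), III (0.023), IV (0.052) and V (0.0012) and for Sdhc (0.006), Sdha (0.032), Uqcrc1 (0.0024), Atp5k (0.062), Cox4i1 (0.016), Atp5g1 (0.0012) and Atp5g3 (0.0037). With quantile normalization they changed for complex I (0.043), II (0.022) and III (0.013) and for Sdhc (0.016), Sdha (0.028), Uqcrc1 (0.0062) and Atp5g1 (0.0069). Complex I was at 0.002 and complex IV at 0.005 with a trimmed mean, at 0.014 and 0.017 with a common median, and complex IV at 0.012 without letter B. Atp5k, not called, was called lower with quantile normalization (-0.18, adjusted p = 0.00199, limma) and was at 0.015 with a trimmed mean, 0.027 with a common median, 0.026 with the scaled counts, 0.017 without letter B, 0.013 without letter D and -0.043 to 0.018 when 1 library was left out (above 0 without wild-type library 4). With the replicate number as a replicate block, 29 genes were lower and 6 higher, and Uqcrh lost its call; same-numbered libraries correlated at -0.0521 to 0.005 in their deviations from the group means, so the numbers gave no sign of pairing. Depth limits Cox8b, Cox7b2, Cox6a2 and Cox4i2, which rest on 3 to 11 estimated fragments per library. Cox7a1 and Cox6b2, both called higher, rest on an estimated 24 and 27 fragments per library.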
